A study of Mus musculus with 3 samples.

Results

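The PYHIN genes form a cluster on mouse chromosome 1. They were looked up by symbol in the deposited transcript tables and linked by gene identifier to the gene tables. Of 9 symbols searched (Aim2, Mndal, Mnda, Ifi203, Ifi204, Ifi207, Ifi209, Ifi211 and Ifi213), 8 matched, among 55536 annotated genes of which 22015 were protein-coding. Mnda matched no symbol of the GENCODE M21 annotation. RefSeq lists it as a synonym of Ifi211, which is among the 8, so it has no value of its own. The measurements come from 3 libraries of 1 condition. Bone-marrow-derived macrophages of C57BL/6J mice were given lipid A at 100 ng/ml for 12 h, kept without it for 12 h and given 100 ng/ml again for 90 min. Lipid A anchors lipopolysaccharide in the bacterial outer membrane and is the ligand of Toll-like receptor 4. RNA of the chromatin fraction, which is rich in RNA still being made or spliced, was depleted of ribosomal RNA and sequenced. Untreated or once-treated cells were not analysed here, so no level below can be read as a response to lipid A. The labels give no age or sex, list the same donor entry for each library, and do not say whether the replicates were separate cultures or animals. The spread between libraries may therefore be partly technical.

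PYHIN proteins carry a pyrin domain, a DNA-binding HIN-200 domain, or both, and several of the genes are known to be induced by interferon. AIM2 binds double-stranded DNA in the cytosol and, through the adaptor ASC, starts an inflammasome that activates caspase-1. The p204 protein, encoded by Ifi204, has been described as a nuclear and cytosolic DNA sensor upstream of interferon beta. The cluster expanded by local duplication in mice, so most of its genes share long stretches of sequence. How reads were divided between these genes is therefore part of most members' values below. Aim2 shared the least with other genes, as described further on.

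The stretch just upstream of the start sites is shown first. Its part in the members' levels, and in their all being highest in the same library, was not tested. RefSeq promoters of 300 bases (250 before and 50 after the start, GRCm38.p6) were listed for 7 of the 8 members, and none was listed for Ifi204. The core of the interferon-stimulated response element, GAAANNGAAA on either strand, was found in 6 of the 9 promoters of these 7 members, against 3.44% of all 32851 promoters in the RefSeq table. The 6 belong to 5 members, and it was not found in those of Aim2 and Ifi209. The only Aim2 promoter listed is at the start of Aim2-205, which held 3.90% of Aim2's counts estimated from alignments and 12.3% from reads. It is not at the start of the coding transcript Aim2-204, which held 72.8% and 36.9%, so it says nothing of the latter. From reads the coding Aim2-202, which also starts elsewhere, held 36.4%. Members in which the core was found have a like limit. The Mndal window below lies before the start of Mndal-209, which held 1.45% of Mndal's counts from alignments. Mndal-201 (44.4%) and Mndal-205 (30.2%) start elsewhere, at chr1:173942491 and chr1:173868760. The Ifi213 promoter is at the start of Ifi213-201 (12.1%). The leading Ifi213-202 (56.1%) starts further downstream, at chr1:173599074. The windows below hold 30 bases before and 16 after the 10 bases in capitals, which mark the aligned site. Each is written 5′ to 3′ in the direction of the gene.
Mndal: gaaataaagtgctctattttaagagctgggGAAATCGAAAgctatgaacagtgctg
Ifi203: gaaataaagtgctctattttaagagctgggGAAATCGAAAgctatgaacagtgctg
Ifi213: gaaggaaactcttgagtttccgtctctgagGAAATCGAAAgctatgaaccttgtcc
Ifi207: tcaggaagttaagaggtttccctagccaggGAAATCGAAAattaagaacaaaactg
Ifi211: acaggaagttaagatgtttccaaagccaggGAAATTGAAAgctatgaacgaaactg
Ifi209: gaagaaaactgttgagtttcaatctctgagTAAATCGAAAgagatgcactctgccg

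These windows lie at chr1:173880198-173880253 for Mndal, chr1:173942502-173942557 for Ifi203, chr1:173599320-173599375 for Ifi213, chr1:173741825-173741880 for Ifi207 and chr1:173913058-173913113 for Ifi211, all on the minus strand. That of Ifi209 lies at chr1:173630750-173630805 on the plus strand. The Mndal window overlaps the first exons of Mndal-203 and Mndal-204, and the others overlap no annotated exon. The first base of the site stood at position -35 from the RefSeq start in Ifi203, -36 in Mndal, -37 in Ifi211, -41 in Ifi207, -73 in Ifi213 and -79 in Ifi209. The same 10 bases occurred in 4 members. They also occurred in 3 PYHIN genes that are not members, Ifi206, Ifi208 and Ifi214, with mean levels of 18.9, 30.7 and 9.14 TPM. Ifi205, also not a member, had GAAATTGAAA. Counted from 1 at the first capital, Ifi211 had C6T, which leaves the GAAANNGAAA pattern whole, and Ifi209 had G1T, which breaks it. The 9 letters AAATNGAAA, a pattern chosen after these sequences were seen, occurred in 6 of the 9 promoters and in 1.87% of all promoters. The Mndal and Ifi203 windows were identical at 56 of 56 positions, and their whole promoters at 90.7% of 311 aligned columns. The window of Ifi213 was identical to that of Ifi208, which is not a member, and the Ifi209 promoter was 95.3% identical to that of Ifi214, which has GAAATCGAAA at the site. The second RefSeq promoter of Mndal held GAAANNGAAA on the other strand only, and the upstream one of Ifi203 held none. Other motifs were searched in the same promoters, and the NF-kB motif was found in as many of the 9 as GAAANNGAAA. By members it was found in 4, against 5 for GAAANNGAAA. Both Mndal promoters overlap and hold the same NF-kB match, which is counted in each. TTCNNNGAA, the interferon gamma-activated site, was found in 0 of the 9 promoters and 8.30% of all promoters. GAGGAAGT, a PU.1 site, was found in 1 of 9 (that of Aim2) and 3.20%, TATAAA in 2 and 13.6%, and the NF-kB motif in 6 and 19.5%. These matches describe letters in a window, and no binding was measured.

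The 8 genes lie on mm10 between Aim2 and Ifi203, within chr1:173350879-173942672. Aim2 (chr1:173350879-173466040) and Ifi209 (chr1:173630917-173647928) are on the plus strand. Ifi213 (chr1:173566283-173599274), Ifi207 (chr1:173723427-173741747), Ifi204 (chr1:173747293-173766943), Ifi211 (chr1:173896345-173913046) and Ifi203 (chr1:173920407-173942672) are on the minus strand. Mndal (chr1:173849126-173942491, minus strand) spans Ifi211 and overlaps most of Ifi203. It shares no exon base with Ifi211. The overlap with Ifi203 comes from 1 transcript, Mndal-201, whose first exon of 37 bases lies inside first exons of Ifi203. That exon is identical at 37 of 37 bases to the first exon of Mndal-209, which starts inside Mndal at chr1:173880151-173880187. Mndal-201 held no stretch of 31 bases that was absent from the other Mndal transcripts, so reads cannot tell its distant start from the near one by such stretches.

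**Figure D1:**
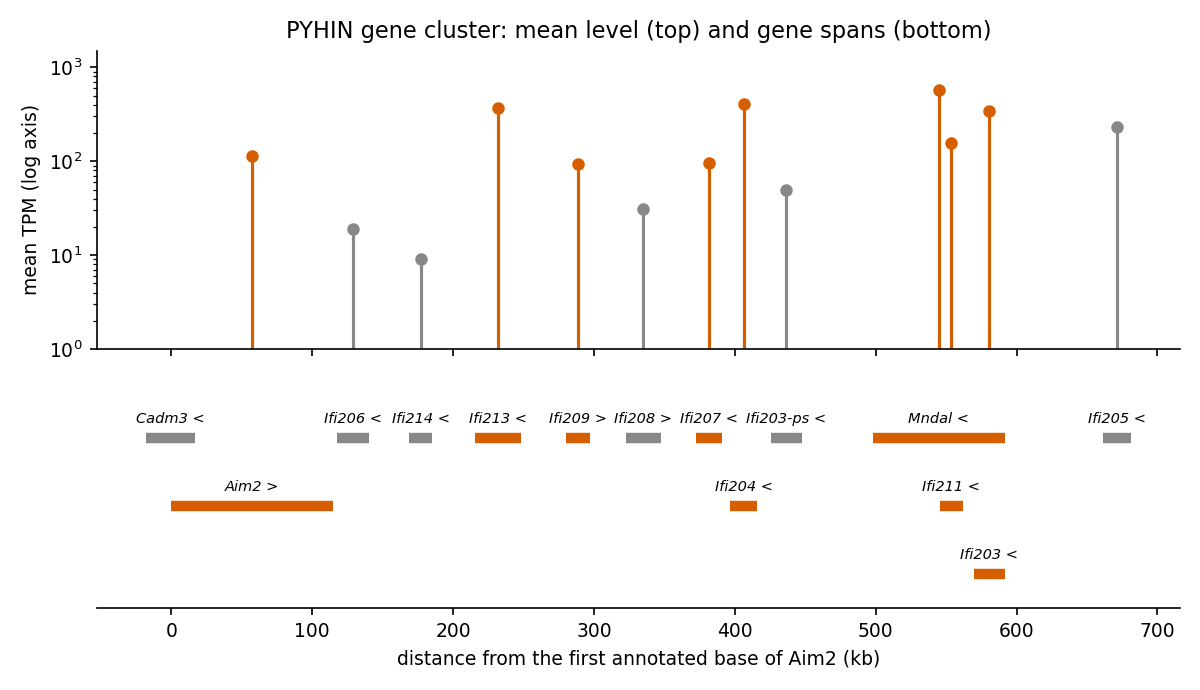
Mean TPM of the gene table (top, log axis) at the middle of each gene, and the gene spans with their direction (bottom), against distance in kb from the first annotated base of Aim2. The 8 members are orange and other coding genes and Ifi203-ps are grey. Cadm3, at 0 TPM, has no point.

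Levels are given as TPM, which corrects for transcript length, from the gene table, as mean ± SD over 3 libraries. Each of the 8 members reached 1 TPM in every library, a level reached by 41.1% of protein-coding genes. All 8 also reached 50 TPM in every library, against 5.02% of coding genes (10 TPM was reached by 19.1%). The members summed to 3176, 1645 and 1644 TPM in replicates 1, 2 and 3, and to 0.931%, 0.601% and 0.560% of the TPM of coding genes. The highest mean was 6.15 times the lowest.

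Mndal, named for its likeness to the myeloid cell nuclear differentiation antigen, was the highest member in each library. It had 851, 426 and 452 TPM in replicates 1, 2 and 3, a mean of 576 ± 238. It ranked 29th, 50th and 46th among all coding genes. Its estimated counts were 9451, 9083 and 7590. Mndal made up 26.7% ± 0.794 of the family's TPM. Its share varied less between libraries than its level did, as was the case for every member.

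Ifi204 had 609, 340 and 285 TPM (411 ± 173), from 11849, 11811 and 7658 counts. Ifi213 had 504, 289 and 307 TPM (367 ± 119). Ifi203 had 542, 231 and 253 TPM (342 ± 174). These 3 genes changed places from library to library. Ifi204 lay above Ifi213 in replicates 1 and 2 and below it in replicate 3, and Ifi203 lay above Ifi213 in replicate 1 only. Ifi204 held 19.1% ± 1.67 of the family's TPM, Ifi213 17.4% ± 1.41 and Ifi203 15.5% ± 1.52.

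The other 4 members formed a lower tier. Ifi211 had 217, 121 and 128 TPM (155 ± 53.7). Aim2, the inflammasome sensor, had 167, 92.9 and 82.9 TPM (114 ± 45.9), from 1389, 1547 and 1035 counts, the fewest of the members. Ifi207 had 131, 84.7 and 70.1 TPM (95.3 ± 32.0), and Ifi209 155, 60.6 and 65.8 TPM (93.8 ± 53.0). The step from Ifi203 down to Ifi211 was the only one between neighbours at which the ranges of TPM did not overlap.

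**Figure D2:**
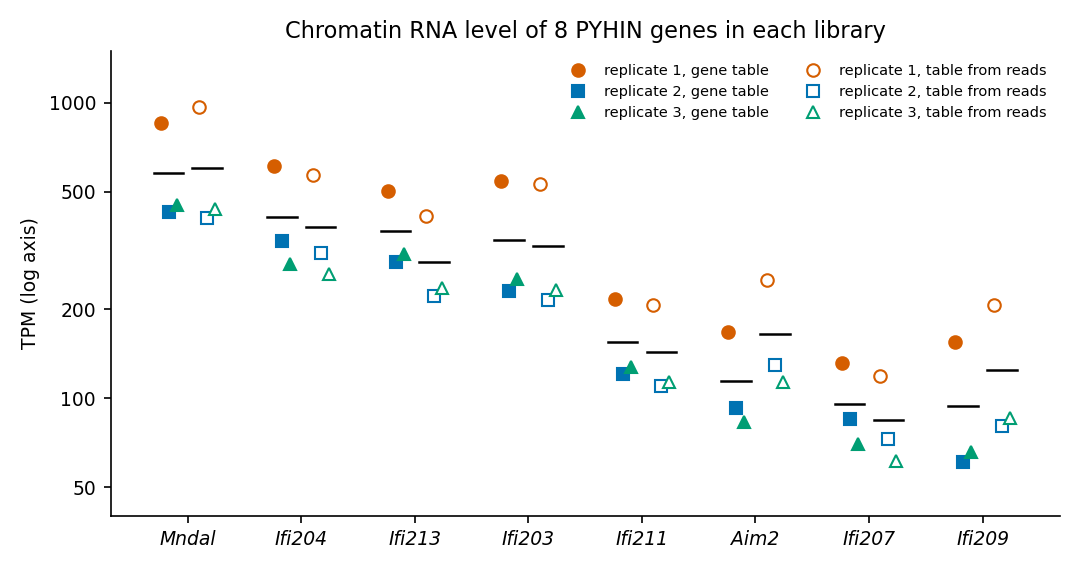
TPM (log axis) of each member in replicates 1 to 3, from the gene table (filled) and from the table made from reads (open), with black lines at the means. Replicate 1 is the highest point of every member in both tables, and Mndal is the highest gene in each.

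Members next to each other in this order were then compared. The order comes from the mean TPM of the same 3 libraries, which favours differences in its direction. Differences were taken within each library on log2(TPM + 1). Such a scale understates differences of low genes, which matters little at these levels. Ifi203 exceeded Ifi211 by 1.08 ± 0.21 log2 units, Mndal exceeded Ifi204 by 0.49 ± 0.17, Ifi211 exceeded Aim2 by 0.45 ± 0.14 and Aim2 exceeded Ifi207 by 0.24 ± 0.11, each in 3 of 3 libraries. Ifi204 against Ifi213 (0.13 ± 0.21), Ifi213 against Ifi203 (0.16 ± 0.23) and Ifi207 against Ifi209 (0.11 ± 0.36) each held in 2 of 3 libraries and were smaller than their spread. The exact two-sided sign-flip permutation test cannot go below p = 0.25 with 3 libraries, so no pair was called (adjusted p of at least 0.4375 over the 7 pairs). Of all 28 pairs of members, 25 stood in the same order in every library. Aim2's place depended on short transcripts: without transcripts under 500 bases it lay below Ifi207 by a difference of -0.98 ± 0.05, as described further on.

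Replicate 1 was the highest library for 8 of 8 members, against 38.1% of 9039 coding genes with at least 1 TPM in each library. The members' ratio of replicate 1 to the mean of the other 2 ranged from 1.69 for Ifi213 to 2.45 for Ifi209, with a median of 1.92. The median over the coding genes was 0.982, and 12.7% of them reached 1.5-fold, which all 8 members did. With TMM-scaled CPM (library-scaled counts, no length correction), which do not depend on the TPM held by short noncoding RNAs, the median ratio of the members was 1.62 and that of coding genes 0.892. Replicate 1 was again highest for 8 of 8 members, against 29.7% of coding genes, and 1.5-fold or more for 8 of 8, against 8.10%.

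The same ratio was taken for lists of related genes. The 15 interferon-stimulated genes had a median of 1.74 and 14 of them were highest in replicate 1. The 5 other PYHIN genes had a median of 2.44, also with replicate 1 highest in 5 of 5. The 11 interferon signalling genes had a median of 1.24 and the 10 inflammasome genes 1.16. For the 10 other genes of cytosolic DNA sensing it was 1.03 and for the 10 macrophage markers 0.942. The inflammasome list holds genes of other inflammasomes, such as Nlrp3 and Casp4, beside those of AIM2. Replicate 1 also differed from the others in the labels and in depth: it is listed with 1 µg of starting RNA against 250 ng and 500 ng, and had 12502177 gene counts against 21683473 and 16844974. Coding genes held 34.1% of its TPM against 27.4% and 29.4%. Their part in the higher levels was not tested. Without replicate 1 the median level over the members was 183 TPM instead of 242.

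**Figure D3:**
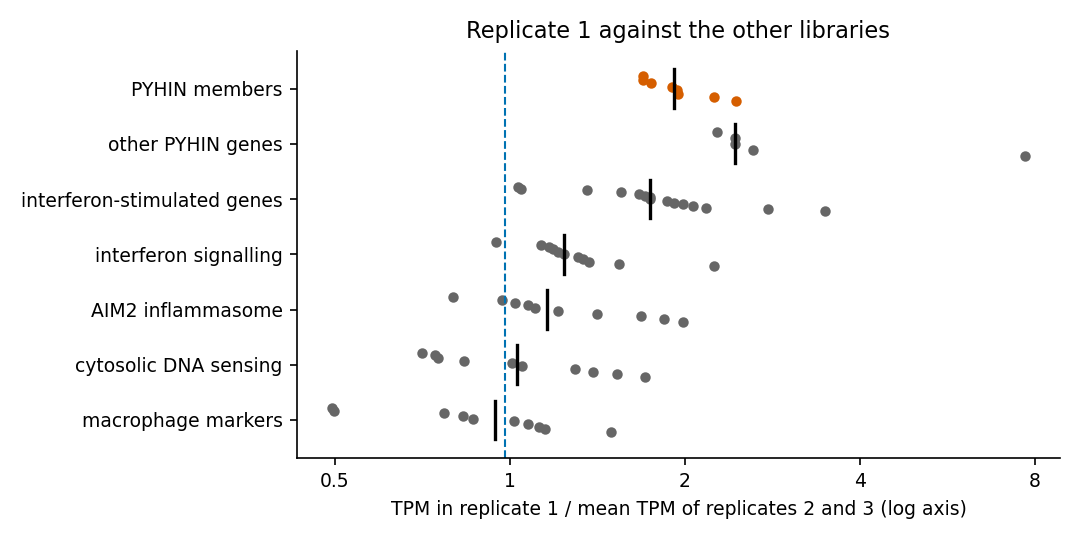
Ratio of TPM in replicate 1 to the mean of replicates 2 and 3 (log axis) for each gene of 7 lists, with black lines at list medians and a dashed line at 0.982, the median of coding genes. All 8 PYHIN members lie between 1.69 and 2.45. The list labelled AIM2 inflammasome also holds genes of other inflammasomes, such as Nlrp3 and Casp4.

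The labelled cell type was checked against marker genes. All 10 macrophage markers reached 1 TPM in each library. Their median was 68.0 ± 7.22 TPM, with sums of 958, 1141 and 994 TPM. None of the markers of B cells (0 of 3), T cells (0 of 3), neutrophils (0 of 4), dendritic cells (0 of 3) or fibroblasts (0 of 3) did, and each of these lists summed to at most 1.01 TPM in a library. Of these markers 1 of B cells, 2 of T cells and 2 of neutrophils were at 0 in every library. The table from reads gave other values for some: Cd3d, a T cell marker at 0 in the gene table, had 18.1, 14.1 and 16.8 TPM there. Mpo, Zbtb46, Xcr1 and Col1a1 lay between 1.01 and 1.95 TPM in each library. Pecam1, an endothelial marker, had 7.11, 8.40 and 7.81 TPM there. Of 3 endothelial markers 1 did, Vwf, with 25.5 ± 10.4 TPM. The endothelial sum in the gene table was 36.6, 16.1 and 26.0 TPM, highest in replicate 1 like the members, and its part in their levels was not tested. Rank correlation of TPM between libraries over 9688 coding genes was 0.944 to 0.973, a description across genes that are not independent.

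Genes of related pathways were also described. Of the inflammasome list, 10 of 10 reached 1 TPM in each library and 8 reached 10 TPM. Their median was 55.5 ± 7.0 TPM, against 242 ± 103 for the PYHIN members. Nlrp3, the sensor of another inflammasome, had 275 ± 24.0 TPM, Casp4, which encodes the caspase that binds lipopolysaccharide, 245 ± 107, and Gsdmd, which encodes the pore-forming substrate of these caspases, 181 ± 10.9. Pycard, which encodes ASC, the adaptor that AIM2 needs, was the lowest with 8.29 ± 1.53 TPM. In chromatin RNA such a level is not that of the mRNA or the protein.

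In the DNA-sensing list 10 of 10 genes reached 1 TPM and 7 reached 10 TPM, with a median of 36.8 ± 4.43. Samhd1, a nucleotide hydrolase, had 485 ± 173 TPM, the kinase gene Tbk1 220 ± 46.7 and Zbp1, a sensor of Z-form nucleic acid, 122 ± 32.5. Tmem173, which encodes STING, was the lowest with 3.86 ± 0.768. In the interferon signalling list Stat2 had 499 ± 94.8 and Irf1 298 ± 79.6, while Ifnb1, the interferon beta gene, was lowest with 5.22 ± 2.67. The interferon-stimulated genes, of which 15 of 15 reached 10 TPM, had a median of 160 ± 67.5 TPM and were led by the antiviral genes Mx1 (1113 ± 459), Oasl2 (933 ± 306) and Rsad2 (678 ± 531).

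Not every gene of the cluster was at the members' level. Ifi205, a PYHIN gene outside the span of the members, had 369, 155 and 170 TPM (231 ± 119), within their range. Ifi203-ps, annotated as an unprocessed pseudogene, had 49.0 ± 38.2 TPM, Ifi208 30.7 ± 17.3, Ifi206 18.9 ± 11.5 and Ifi214 9.14 ± 5.14, all below the lowest member mean. Ifi202b, whose product p202 opposes AIM2, is the nearest coding gene beyond Ifi203 and had 20, 5 and 3 counts (0.517 ± 0.618 TPM). The pseudogenes Gm18752 and Gm7871 had 1.62 and 1.11 TPM, and Gm7897 and Gm38050 had 0 counts. Cadm3, a cell adhesion gene on the strand opposite Aim2, and Ackr1, the nearest coding gene on that side, had 0 counts in each library. For Cadm3 the upper limit of a zero count, set at 3 counts for counting error only, was 0.125, 0.0711 and 0.0923 TPM in the libraries in order. The table from reads gave Cadm3 3, 17.2 and 6.05 counts, or 0.0353, 0.134 and 0.0639 TPM, which passes that limit in replicate 2. Cadm3 overlaps only Aim2-202, the 1 Aim2 transcript that starts at chr1:173350879.

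Shared sequence was measured as distinct stretches of 31 bases, on either strand, that also occur in transcripts of another gene. Ifi211 shared the most, 78.9% of its 1731 stretches, of which 857 occurred in Ifi205, 668 in Ifi204 and 437 in Mndal. For Ifi209 it was 47.2%, nearly all with Ifi214. Ifi204 shared 34.6%, Mndal 28.7%, Ifi213 26.6% (mostly with Ifi208), Ifi203 21.9% (mostly with Ifi203-ps) and Ifi207 14.8%. Aim2 shared 5.26%, the least. The gene table's own posterior SD of the count followed a similar order at its ends: it was 0 for Aim2 and largest for Ifi211, at 34.6, 29.0 and 27.5 counts, or 0.930%, 0.805% and 0.932% of its counts. Ifi204 came next with 18.7, 14.3 and 13.2 counts. For every member it was smaller than the square root of the count, which for Ifi211 was 54.3 to 61.0.

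The members were then compared between the gene table, made from transcriptome alignments, and a second set of estimates made directly from the reads and summed per gene. The median over the 8 members of log2(TPM + 1) in the table from reads minus that in the gene table was -0.09 ± 0.04 (SD, n = 3), whereas the median over 11568 coding genes was 0.49, with quartiles of 0.10 and 1.11. The table from reads was lower in 3 of 3 libraries for 5 of 8 members, against 13.9% of coding genes. It was higher in 3 of 3 for 2 of 8, against 74.4%. Only 9039 coding genes passed the limit of 1 TPM throughout the gene table, so the 11568 include lower ones. The members all reached 50 TPM there, so this background was not matched to their level. How far the choice of genes shaped the contrast was not tested.

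Ifi213 differed most in the lower direction, with 412, 221 and 237 TPM in the table from reads (290 ± 106) and a difference of -0.35 ± 0.05. Ifi207 (-0.18 ± 0.04), Ifi211 (-0.12 ± 0.05), Ifi204 (-0.11 ± 0.02) and Ifi203 (-0.08 ± 0.05) were also lower there in each library. Mndal had 965, 406 and 438 TPM, higher in replicate 1 only, and a difference of 0.02 ± 0.14. The 2 members that were higher there were Aim2, with 251, 130 and 113 TPM (165 ± 75.4) and a difference of 0.50 ± 0.08, and Ifi209, with 207, 80.6 and 85.4 TPM (124 ± 71.3) and a difference of 0.40 ± 0.02. Both depended on the scaling: with the tables rescaled to coding genes the difference was 0.12 ± 0.05 for Aim2 and 0.018 ± 0.049 for Ifi209. The exact sign-flip p was 0.25 for each of the 7 members other than Mndal (adjusted p = 0.2857 over 8), which is the smallest that 3 libraries allow. Aim2's counts in the table from reads were 2.07 times those of the gene table, and the other members' were 1.33 to 1.59 times. The ratio of the whole tables was 1.62 to 1.78. In the table from reads Aim2 lay above Ifi211, Ifi203 above Ifi213 and Ifi209 above Ifi207, so 3 of the 7 neighbouring pairs had their means the other way round.

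**Figure D4:**
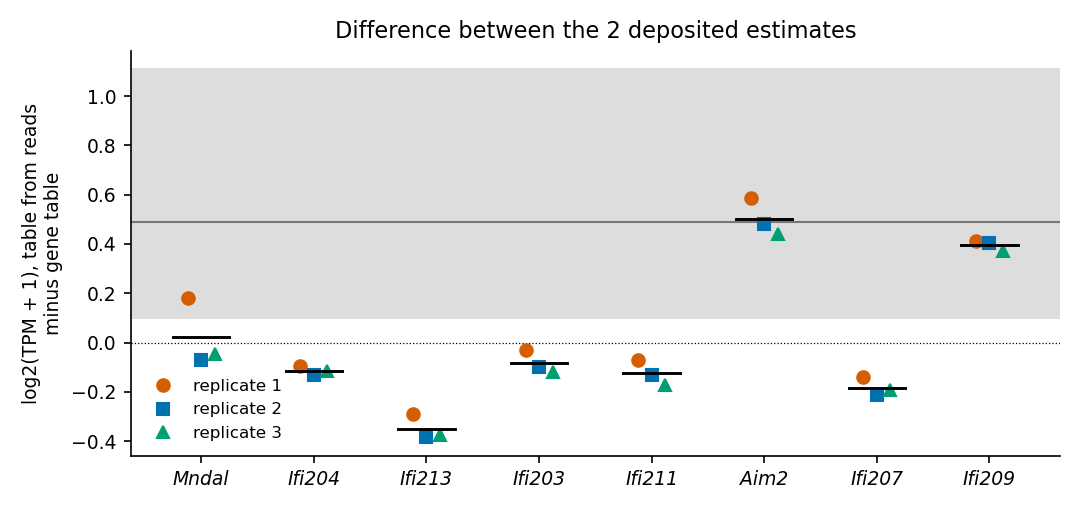
Difference in log2(TPM + 1) between the table made from reads and the gene table for each member in replicates 1 to 3, with black lines at the means. The grey band runs from 0.10 to 1.11, the quartiles of 11568 coding genes, around their median of 0.49, and 6 of the 8 member means lie below it. The 11568 include genes under 1 TPM in a library of the gene table and were not matched to the members' level.

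Both tables also gave values per annotated transcript. For the 7 members with more than 1 transcript, the part of the TPM assigned to other transcripts in one table than in the other ranged from 4.70% for Ifi213 and 6.10% for Ifi204 to 35.2% for Aim2 and 43.4% for Ifi209. The median over 8463 coding genes was 25.8%. The transcript with the highest mean changed for 1 of these 7 members, Ifi209, against 49.4% of coding genes.

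Ifi209 has a coding transcript, Ifi209-201, and Ifi209-202, annotated as a target of nonsense-mediated decay. In the table from alignments Ifi209-201 had 122, 49.7 and 54.0 TPM and Ifi209-202 33.3, 10.9 and 11.7. The table from reads had them the other way round, with 73.9, 30.9 and 32.8 for Ifi209-201 and 133, 49.8 and 52.7 for Ifi209-202. The decay transcript thus held 19.1% ± 2.07 or 62.5% ± 1.47 of Ifi209, a difference many times the spread between libraries. Both transcripts shared close to the same part of their stretches with Ifi214 (48.2% and 49.8%), and Ifi214 itself had 9.14 TPM in the gene table and 53.9 ± 29.8 in the table from reads. The part of shared sequence in the difference was not tested.

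For Ifi207 the alternative coding transcript Ifi207-202 had 0, 0 and 0.730 TPM in the table from alignments and 30.6, 13.4 and 11.7 in the table from reads, beside 95.1 ± 32.3 and 65.8 ± 20.2 for Ifi207-201. Only 27 of its 2930 distinct stretches were absent from Ifi207-201. Ifi211 has 1 annotated transcript and no split to compare.

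Aim2 has 7 annotated transcripts, 4 of them under 500 bases. These 4 held 57.6% ± 1.80 of its TPM but 10.7% ± 2.68 of its counts, because TPM divides by a length that becomes small for such transcripts. The highest was Aim2-206, a processed transcript of 383 bases that starts far upstream of Aim2-204, with 55.6, 30.6 and 33.3 TPM. Next came the coding transcript Aim2-204, of 2079 bases, with 50.5, 30.4 and 27.9 TPM. Aim2-206 was again the highest in the table from reads (36.3 ± 18.5 TPM), followed by Aim2-203, of 326 bases, with 46.1, 29.6 and 19.5 TPM. Aim2-203 had 0, 1.82 and 0 TPM in the table from alignments. Coding transcripts held 89.4% ± 2.76 of Aim2's counts there. Without the short transcripts Aim2 had 67.3, 40.6 and 35.8 TPM (47.9 ± 17.0) and was the lowest member in place of the sixth.

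Chromatin RNA can hold transcripts whose introns are still in place, and 4 members have a transcript annotated as retaining one. Such transcripts held 43.2% ± 3.10 of the TPM of Ifi204, 40.8% ± 2.03 of Mndal, 36.0% ± 3.13 of Ifi203 and 9.54% ± 1.34 of Ifi213. The median over these 4 was 38.4% ± 2.47, against 48.1% ± 2.41 over 5881 coding genes with such a transcript. These coding genes were not matched to the members in level or in number of transcripts. In the table from reads the members' median was 45.5% and by counts 32.8%, so the share depended on the measure by more than its spread. The value over coding genes was taken for TPM from alignments only and is no background for these. These shares cover annotated transcripts only and are not the share of unspliced RNA.

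The leading transcript of 2 members was of this type. Mndal-205 had 243, 130 and 128 TPM, close to the coding Mndal-201 with 210, 132 and 137, and the latter was the higher of the pair in replicates 2 and 3. In the table from reads these were also the 2 highest Mndal transcripts, with 162 ± 73.3 and 146 ± 41.8 TPM. Ifi203-207 had 214, 77.8 and 87.7 TPM, beside 185, 73.1 and 91.5 for the coding Ifi203-205, which was the higher in replicate 3. From reads they had 152 ± 94.5 and 86.3 ± 43.9. Of the other members, Ifi204 was led by the coding Ifi204-201 (230 ± 82.8 TPM) over the intron-retaining Ifi204-202 (181 ± 90.3), and these were nearly level in the table from reads (192 ± 76.9 and 189 ± 88.2). In Ifi213 the coding transcripts Ifi213-202 (141 ± 35.1) and Ifi213-205 (119 ± 44.3) led, as they did in the table from reads (102 ± 27.8 and 89.5 ± 34.4).

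**Figure D5:**
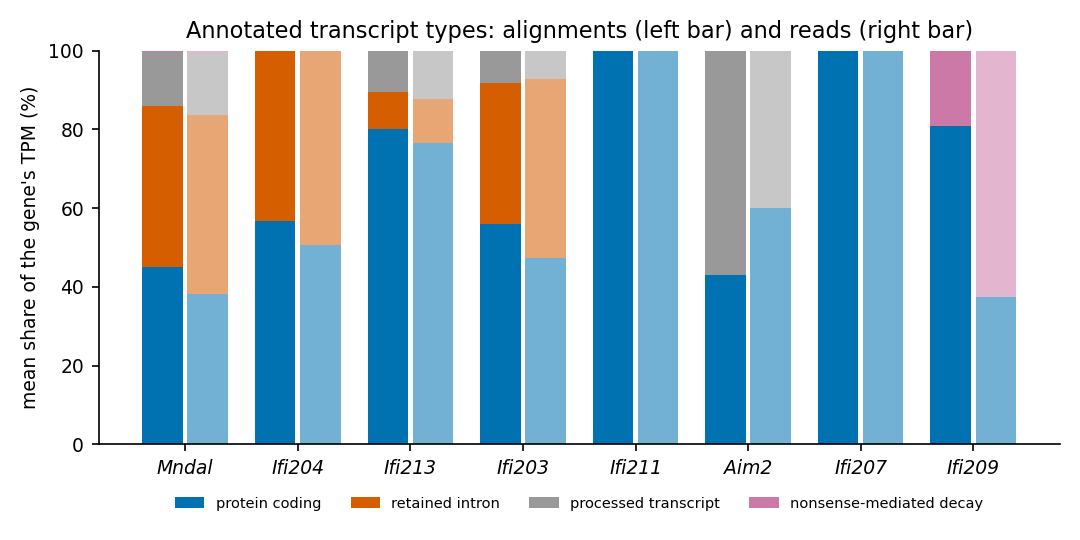
Mean share of each member's TPM (percent, over 3 libraries) by annotated transcript type, in the table from alignments (left bar, dark) and the table from reads (right bar, pale). Ifi209 is the member whose types differ most between the tables, with 19.1% and 62.5% on the nonsense-mediated decay transcript.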

How the data were processed

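Total RNA of the chromatin fraction was measured in 3 libraries of 1 condition. Per the file headers and labels, the authors deposited, for each library, gene and transcript values estimated from transcriptome alignments, and further transcript values estimated from reads, on mm10 with GENCODE M21. The sources used here name no aligner, quantifier or strand setting. In the deposited files, expected counts are estimates with decimals. The deposited TPM values are scaled over every feature, short noncoding RNAs included. Effective lengths and the posterior SD of counts are the authors', per the file headers. Rows that name no annotated gene (26345, with 1.34%, 0.292% and 0.416% of counts) were left out of library sizes.

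Members, lists and the promoter motifs were chosen with earlier results of these data known, so no count over them is independent evidence. TPM of the table from reads were summed per gene. Differences used log2(TPM + 1) within a library, with an exact two-sided sign-flip test. For alternatives, counts rounded to whole numbers were scaled with TMM in edgeR 4.0.16 or DESeq2 1.42.0 size factors (R 4.3.3). Other steps used Python 3.11.15, numpy 2.4.6 and pandas 2.3.3, and the scripts were tested on simulated data. Promoters are from RefSeq. Named genes were the members, the genes between the outermost members and the nearest coding gene on each side, the 3 highest and the lowest of each list, and the 2 highest transcripts of each member per table. Marker lists of other cell types are given by sums, and Vwf by name. One gene that this rule takes is not reported here. Of 8 other PYHIN genes listed, 5 matched (not Pyhin1, Pydc3 and Pydc4).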

Additional observations from a re-analysis of the deposited data

Results flagged for a closer look

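Gm44339, a short entry annotated as a microRNA on the strand opposite Ifi209 within one of its introns (chr1:173643511-173643594), stood out because it had reads in data that the comparisons did not use. The gene table gives it an effective length of 0 and lists it at 0 in each library. The transcript table made from reads gave it 118, 134 and 83.0 estimated counts in replicates 1, 2 and 3, a mean of 111.9, and 443, 244 and 192 TPM. The 0 of the gene table follows from the effective length and sets no limit on the reads. Reads of Ifi209 introns and of the opposite strand cannot be told apart from it here. A similar microRNA entry within Ifi214, Gm44481, also has an effective length of 0 and had 1.44, 9.26 and 6.73 counts in the table from reads.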

How the results depend on the processing

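All 8 members stayed detected at every limit, table and set of libraries tried (8 each). The median level over the members was 242 TPM, 783 with TPM rescaled to coding genes, 405 as TMM-scaled CPM and 406 with DESeq2 size factors, the last 2 without length correction, and 183 to 275 with 1 library left out. Of 7 neighbouring pairs 4 stood in the order of the gene table's means in all libraries, 2 with TMM-scaled CPM (where 3 others stood in the opposite order in all), and 4 to 6 with 1 library left out. Pairs whose mean turned round were Mndal minus Ifi204 (-0.24, TMM), Ifi213 minus Ifi203 (-0.10, table from reads; -0.39, TMM), Ifi211 minus Aim2 (-0.17, table from reads), Aim2 minus Ifi207 (-1.71, TMM; -0.98, short transcripts left out, chosen after seeing the data) and Ifi207 minus Ifi209 (-0.47, table from reads; -0.074 to 0.28 with 1 library left out, negative without replicate 2). The median difference between tables was -0.09, -0.15 as CPM, -0.48 with both tables rescaled to coding genes, and -0.12 to -0.08 with 1 library left out. For Mndal it turned to -0.14 and -0.36, and was -0.059 to 0.067 with 1 library left out (negative without replicate 1), and for Ifi209 to -0.11 as CPM. The retained-intron share was 38.4%, 45.5% in the table from reads, 32.8% by counts, and 36.9% to 39.2% with 1 library left out. Apart from the scalings, whose construction changes the unit, the cause was not tested. No paired analysis was possible because there is 1 group.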
